A study of Mus musculus with 2 samples.

Results

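Connexins are the proteins that form gap junctions, and 6 of their genes are described here in the mouse heart: Gja1, Gja3, Gja4, Gja5, Gjc1 and Gjb2. The genes were taken from a list by their symbols in the transcript tables. They are 6 of the 55536 genes measured and 6 of the 20 connexin genes among them. The study sequenced total RNA of the heart from 2 female B6CASTF1/J mice aged 25 days, a first-generation hybrid of a laboratory strain and a wild-derived strain. Libraries started from 300 ng RNA and received ERCC spike-ins; the labels number them as biological replicates 1 and 2 of 1 group. Both samples carry the same donor label but separate animal numbers, so they are taken as 2 animals, and no treatment or genotype was compared. Whole heart tissue was used, so a connexin of the working muscle, the vessels or the conduction system is read in 1 mixture. Fewer cells of a type and less RNA per cell cannot be told apart in such a mixture.

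A gap junction channel is built from hexamers of connexins, one in each of the joined cells, and lets ions and small molecules pass. In the heart these channels carry the action potential from cell to cell. The working muscle of the ventricle uses mostly Cx43, the product of Gja1. The atria and the fast ventricular conduction system also use Cx40, encoded by Gja5, and the nodes use Cx45, encoded by Gjc1. Arterial endothelium is joined by Cx37, encoded by Gja4, and by Cx40. Cx46, encoded by Gja3, is best known from the lens, and Cx26, encoded by Gjb2, from the cochlea, skin and liver.

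The members share a signature that makes them recognisable as one family, namely 3 cysteine codons in each extracellular loop that docks onto the neighbouring cell. A search of the coding sequences for cysteine codons separated by 6 and then 3 other codons found 1 match in each member. The stretches below are 36 coding bases of the GENCODE M21 reference transcripts on mm10, with the cysteine codons in capitals. They are shown because they let the reader see how alike the 6 genes are where the family is most conserved.
Gja1: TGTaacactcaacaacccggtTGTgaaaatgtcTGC
Gja3: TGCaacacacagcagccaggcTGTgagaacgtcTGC
Gja4: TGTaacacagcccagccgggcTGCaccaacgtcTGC
Gja5: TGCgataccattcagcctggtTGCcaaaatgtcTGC
Gjc1: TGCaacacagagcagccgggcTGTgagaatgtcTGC
Gjb2: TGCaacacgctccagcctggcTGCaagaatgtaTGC
Gja3 and Gjc1 were the most alike in this stretch, with 33 of 36 bases identical (91.7%), and Gja4 and Gja5, both used by arterial endothelium, the least alike, with 23 of 36 (63.9%). Gja1 was as close to Gja3 as to Gjc1, at 77.8% each. The stretch starts at codon 54 in Gja1, Gja3, Gja4 and Gja5 and at codon 53 in Gjc1 and Gjb2. A second set with separations of 4 and 5 codons, as in the other extracellular loop, was found once in each member. Full coding lengths differed more, from 226 codons in Gjb2 to 417 in Gja3, with 333 in Gja4, 358 in Gja5, 382 in Gja1 and 396 in Gjc1. These are reference letters, and the wild-derived allele of the hybrid was not read.

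Despite this likeness the members share few or no longer runs of bases with other genes. Of all runs of 31 bases in the full-length transcripts, those of Gja1, Gja3, Gja4, Gjc1 and Gjb2 occurred in no other gene's transcripts on the same strand. In Gja5, 18 of 3074 runs (0.586%) were found elsewhere, none of them in its coding part. Together the 18 occurred in 1423 other genes, and 3 of the 18 occurred in other connexin genes.

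Gja1, the connexin of the working muscle, was by far the most abundant. Replicate 1 had 155 TPM and replicate 2 had 189 TPM, with a mean of 172 ± 24.6 TPM (SD, n = 2). TPM is transcript abundance per length, scaled to a fixed total in each library, so levels of genes can be set side by side. Gja1 ranked 323rd of 22015 protein-coding nuclear genes by mean TPM. It held 83.8% of the summed TPM of the 20 connexins in replicate 1 and 84.4% in replicate 2. Because Gja1 makes up most of this sum, a change in its level moves its share little. The summed TPM of the family was 185 in replicate 1 and 224 in replicate 2. The gene lies at chr10:56377330-56402513 on the plus strand of mm10.

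Gjc1, which the nodes use, was the next in order. It measured 11.2 TPM in the first animal and 13.6 TPM in the second, with a mean of 12.4 ± 1.67 TPM, and ranked 4313rd. Its share of the connexin TPM was 6.08% and 6.05% in the 2 animals, so it kept pace with the family as a whole. Gjc1 lies at chr11:102799579-102819700 on the minus strand.

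Gja5, the connexin of atria, fast conduction tissue and arterial endothelium, had the widest spread relative to its level among the 5 members that reached 1 TPM in both animals. Replicate 1 had 5.89 TPM and replicate 2 had 8.32 TPM, with a mean of 7.11 ± 1.72 TPM, and the gene ranked 6284th. Its counts differed less than its TPM, with 466 reads against 568, and the transcript forms below show which model the TPM came from. Gja5 lies at chr3:96904693-97077416 on the plus strand. On the opposite strand this interval also holds Gpr89, at 8.28 and 7.18 TPM, and 2 antisense genes at 0 counts. Whether the counting used strand is not given in the sources used here.

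Gja4, the endothelial connexin, was nearly equal in the 2 animals. It measured 4.80 and 5.15 TPM in replicates 1 and 2, with a mean of 4.97 ± 0.247 TPM, and ranked 7485th. It is annotated with a single transcript, so no estimation between forms enters its level. Gja4 lies at chr4:127311421-127314039 on the minus strand.

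Gja3, known from lens fibres, reached 7.07 TPM in replicate 1 and 6.70 in replicate 2, with a mean of 6.88 ± 0.262 TPM, on 436 and 449 reads. It ranked 6408th, between Gja5 and Gja4. The other lens genes did not accompany it: Cryaa, Cryba1, Mip and Lim2 had 0 counts in both animals, and the 5 lens markers summed to 0.13 and 0.08 TPM, all of it from Bfsp1. Gja3 lies at chr14:57034460-57058100 on the minus strand. Gjb2, 40.5 kb away on the same chromosome and strand at chr14:57098600-57104702, had 2 reads in replicate 1 and 10 in replicate 2, or 0.03 and 0.12 TPM, with a mean of 0.075 ± 0.0636 TPM. Gjb6, its neighbour at 18.6 kb, had 0 counts in both animals. By counting error alone, with 3 counts as the limit, this allows up to 0.0443 TPM in replicate 1 and 0.0428 TPM in replicate 2, while the deposited credibility intervals of Gjb6 reach 0.935 and 0.900 TPM.

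**Figure D1:**
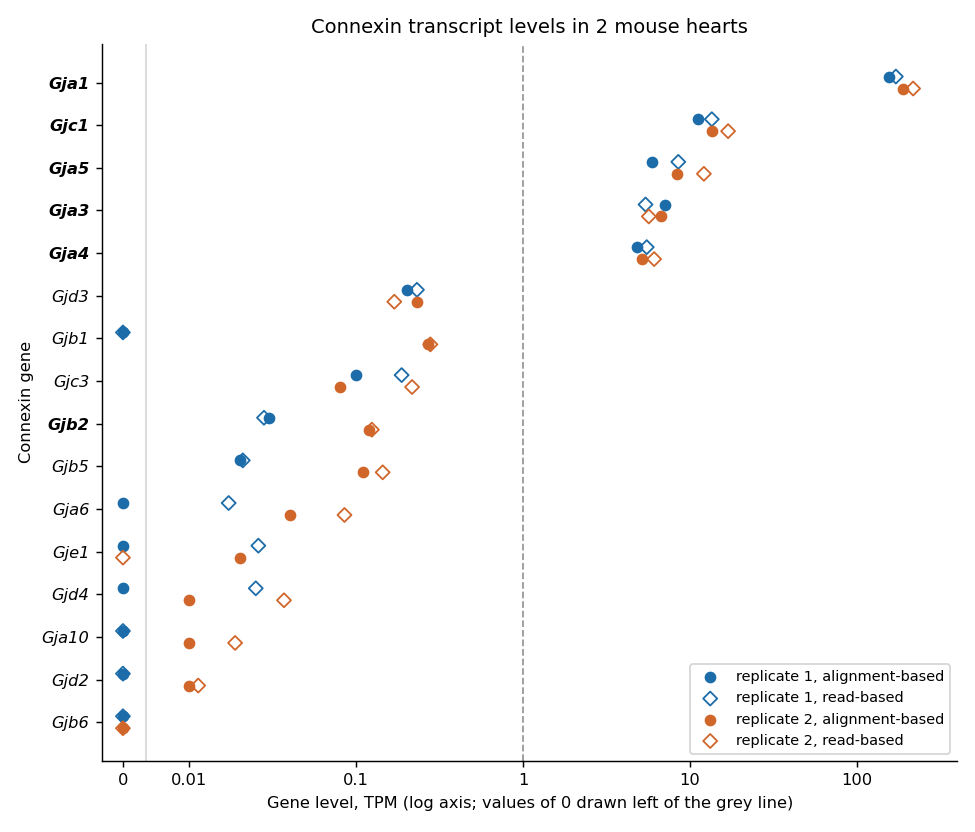
Level of the members and 10 other connexin genes in TPM (horizontal log axis) in replicate 1 (blue) and replicate 2 (orange), from the alignment-based gene tables (circles) and the read-based tables (diamonds); members in bold, values of 0 left of the grey line. Gja1, Gjc1, Gja5, Gja3 and Gja4 lie right of the dashed line at 1 TPM in both animals, and no other connexin plotted does.

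In all, 5 of the 6 members reached 1 TPM in both animals, against 0 of the 14 other connexins. Of these, Gjd3, reported in mouse conduction tissue, measured 0.20 and 0.23 TPM on 5 and 6 reads. Gjc3, a glial connexin, measured 0.10 and 0.08 TPM. Gja6, Gja10, Gjb1, Gjb5, Gjd2, Gjd4 and Gje1 had 14 reads or fewer in each animal. Of the related pannexins, which form channels in the membrane of single cells, Panx1 measured 1.47 and 1.29 TPM, Panx2 0.60 and 0.40 TPM, and Panx3 had 0 counts.

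The muscle form was then set against the conduction and vessel forms within each animal, as log2 ratios of TPM + 0.1. Gja1 exceeded Gjc1 by 3.77 in replicate 1 and 3.79 in replicate 2, a mean of 3.78 ± 0.01 or 13.8-fold. It exceeded Gja5 by 4.69 and 4.49, a mean of 4.59 ± 0.14 or 24.1-fold, and Gja4 by 4.98 and 5.17, a mean of 5.08 ± 0.14 or 33.7-fold. The ratio of Gja1 to Gjc1 therefore differed least between the hearts. An exact permutation test over 2 animals cannot go below a p of 0.5, so these ratios are given without a test.

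Among the less abundant forms, Gja5 stood below Gjc1 in both animals, by log2 ratios of -0.92 and -0.70. Gja4 stood below Gjc1 by -1.21 and -1.38. The vessel form Gja4 was below Gja5, which vessels share with atria and conduction tissue, by -0.29 and -0.68. Gja3 was above Gja5 in replicate 1, at 0.26, and below it in replicate 2, at -0.31, so these 2 neighbours in the order did not differ beyond their spread. Over the 15 pairs of members, 14 had the same sign in both animals and a mean larger than its SD.

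**Figure D2:**
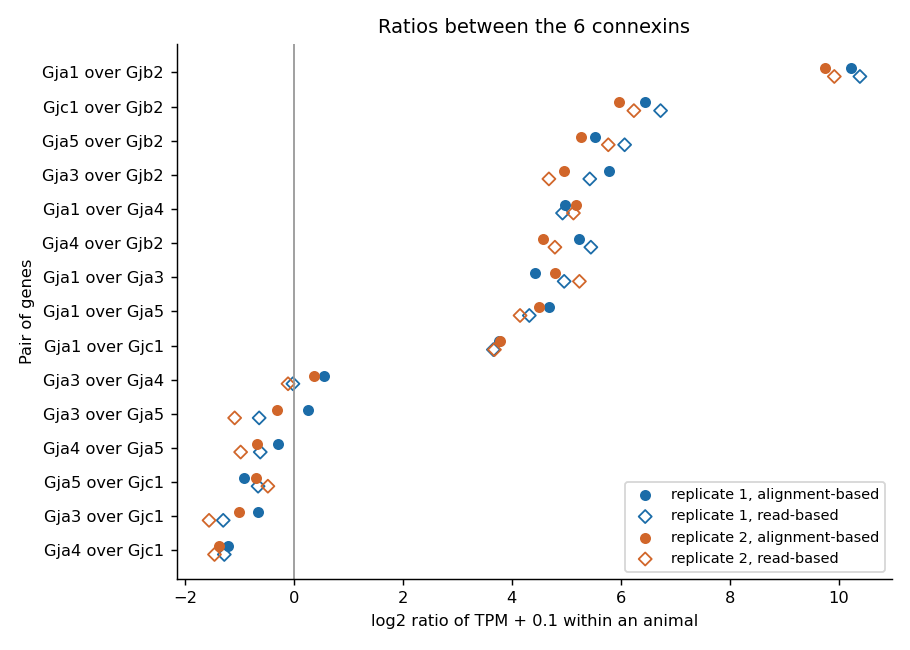
log2 ratio of TPM + 0.1 within each animal (horizontal axis) for the 15 pairs of members, for replicate 1 (blue) and replicate 2 (orange), from the alignment-based (circles) and read-based tables (diamonds). The pairs with Gja1 or Gjb2 lie far right of 0, with Gja1 over Gjc1 at 3.77 and 3.79, whereas Gja3 over Gja5 lies on both sides of 0 in the alignment-based tables.

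The second, read-based quantification of the same libraries gave Gja1 171 and 217 TPM, Gjc1 13.5 and 16.9 TPM, and Gja5 8.50 and 12.1 TPM in replicates 1 and 2. It gave Gja4 5.50 and 6.09 TPM, Gja3 5.41 and 5.66 TPM, and Gjb2 0.028 and 0.124 TPM. Over 11215 protein-coding genes the read-based level was higher by a median log2 ratio of 0.23, close to that of Gja4 (0.22), Gja1 (0.18) and Gjc1 (0.29). Gja5 was raised by more, at 0.53, and Gja3 was lower, at -0.31. The order of Gja3 and Gja4 turned over with it, since log2 Gja3 over Gja4 was 0.46 ± 0.12 in the alignment-based and -0.06 ± 0.06 in the read-based tables. The means of the other 14 pairs kept their sign, although for Gja3 over Gja5 the alignment-based mean of -0.02 ± 0.40 had no sign beyond its spread, and replicate 1 turned from 0.26 to -0.64.

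The 2 hearts were compared gene by gene, testing how a gene's counts fell on either library by an exact binomial test, against TMM-scaled library sizes, adjusted by the Benjamini-Hochberg method over 15839 genes. This test compares 2 libraries and not conditions, and it covers counting error only. A gene was called differing at an adjusted p under 0.05, a ratio of at least 2 and separate deposited credibility intervals. None of the 5 members that reached a mean count of 10 was counted as differing, where 0.821% of all genes tested were, 0.524% as higher in replicate 1 and 0.297% as higher in replicate 2. At any ratio, 3 of the 5 passed the adjusted threshold, all with more scaled counts in replicate 2, where 20.3% of all genes tested passed, 10.9% as higher in replicate 1 and 9.43% as higher in replicate 2. With ERCC totals as the scale, which shifts every log2 ratio by -0.10, the same exact binomial test gave Gja3 a log2 ratio of -0.02 in place of 0.08 (adjusted p = 0.945), and the other 4 stayed above 0. Of all genes passing at any ratio, 1722 were higher in replicate 1 and 1493 in replicate 2, against 3690 and 508 with ERCC totals and 2097 and 1076 with total counts.

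Gja1 had 15514 counts in replicate 1 and 19578 in replicate 2. After scaling it was 1.30-fold higher in replicate 2, with an exact 95% interval of 1.27 to 1.32 (adjusted p = 6.52e-127, exact binomial test). Gjc1, with 698 and 870 counts, was 1.28-fold higher, with an interval of 1.16 to 1.42 (adjusted p = 1.79e-05, exact binomial test). Gja1 and Gjc1 were thus higher in the same animal by ratios whose intervals overlap. The interval of Gja1 also overlaps those of Gja5 and Gja4, given next, so this does not set the pair apart. Gja5, with 466 and 568 counts, was 1.25-fold higher in replicate 2, with an interval of 1.11 to 1.42 (adjusted p = 0.00298, exact binomial test, and 0.0487 with ERCC totals as the scale). Gja4, with 257 and 285 counts, had a ratio of 1.14 with an interval of 0.959 to 1.35, and Gja3, with 436 and 449, a ratio of 1.06 with an interval of 0.925 to 1.21 (adjusted p = 0.324 and 0.655, exact binomial test). The medians of the log2 ratios were 0.32 over the 5 tested members and 0.00 over all genes tested. The deposited credibility intervals were separate for Gja1 and Gjc1 and overlapped for Gja5, Gja4 and Gja3.

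**Figure D3:**
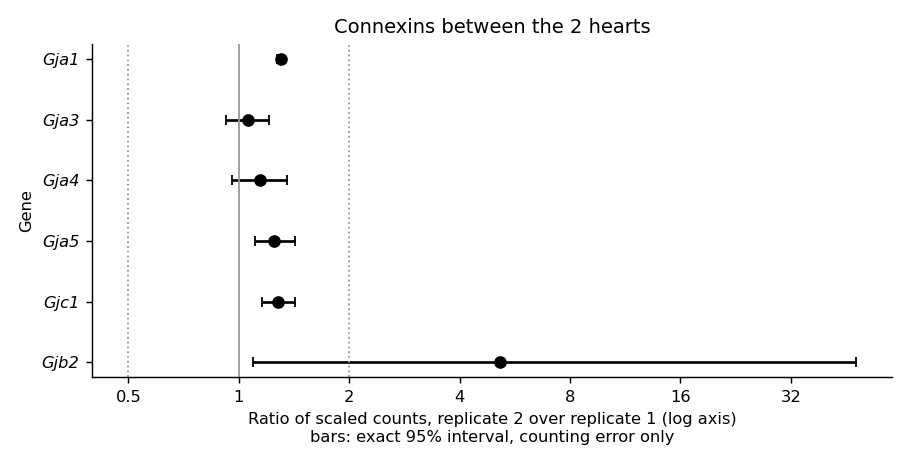
Ratio of TMM-scaled counts in replicate 2 over replicate 1 (horizontal log axis) for the 6 members, with exact 95% intervals that cover counting error only; dotted lines mark ratios of 0.5 and 2. Gja1, Gjc1 and Gja5 lie between 1.25 and 1.30, and the interval of Gjb2, on 2 and 10 reads, reaches from 1.09 to 48.2.

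Markers of the cell types that use these connexins were read beside them, as log2 ratios of replicate 2 over replicate 1. Of the 7 cardiomyocyte markers, led by Myh6, Mb and Actc1, 7 passed at any ratio as higher in replicate 2, where 9.43% of all genes tested did. Tnni3, the least counted of them, had 79177 and 86061 counts, and at such depth small ratios pass a test of counting error. Their median was 0.12, and the median absolute log2 ratio of all genes tested was 0.14. The 3 ventricular markers were also higher there, with a median of 0.16, and Irx4, a ventricular transcription factor, at 0.44. With ERCC totals, 4 of the cardiomyocyte markers passed as higher in replicate 2 and 3 as higher in replicate 1, with a median of 0.02. The atrial markers went the other way. Of 5, 4 passed as higher in replicate 1, where 10.9% of all genes tested did, with a median of -0.25. The 5 summed to 1497 TPM in replicate 1 and 1166 TPM in replicate 2, led by Nppa at 840 and 639 TPM. Gja5, which atrial muscle uses, was thus higher in the animal with less atrial marker RNA. The part of the tissue's make-up in these connexin ratios was not tested.

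The conduction markers summed to 37.3 TPM in replicate 1 and 32.5 TPM in replicate 2. Of the 7, 2, Cntn2 and Cpne5, passed as higher in replicate 1, where 10.9% of all genes tested did. Whether passing or not, 5 had a log2 ratio below 0 and 2, with Hcn4 among them, above 0, and the median was -0.08. Of the defining channel genes, Hcn4, the pacemaker channel, measured 2.51 and 2.65 TPM, and Cacna1g, a T-type calcium channel, 8.28 and 7.42 TPM. Kcnj3, a potassium channel of atria and nodes, measured 20.9 and 18.9 TPM, most of the summed level in each animal. None of these 3 passed at any ratio, and Gjc1, at 11.2 and 13.6 TPM, did. The log2 ratios were 0.17 for Hcn4, 0.05 for Cacna1g, -0.07 for Kcnj3 and 0.36 for Gjc1. Whether the ratio of Gjc1 differs from theirs was not tested. The cell types behind the whole-heart level of Gjc1 were not tested.

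Vessel markers were read beside Gja4 and Gja5. Over all genes tested, 10.9% passed at any ratio as higher in replicate 1 and 9.43% as higher in replicate 2. The 6 endothelial markers summed to 214 TPM in replicate 1 and 184 TPM in replicate 2, led by Cdh5, Pecam1 and Kdr, and 4 passed as higher in replicate 1. The 6 arterial endothelial markers, led by Efnb2, Nos3 and Dll4, summed to 45.0 and 37.8 TPM, with Nos3, Dll4 and Sema3g higher in replicate 1 and 1, Unc5b, higher in replicate 2 (0 with total counts or ERCC totals). Smooth muscle markers, led by Acta2, Smtn and Tagln, summed to 250 and 189 TPM, with 4 of 5 higher in replicate 1. Pericyte markers, led by Rgs5, Pdgfrb and Kcnj8, summed to 178 and 147 TPM, with 2 of 5, Rgs5 and Notch3, higher in replicate 1. Summed vessel marker RNA was therefore lower in replicate 2 in each of these 4 lists, but sums follow the most abundant genes. Rgs5, at 128 and 99.9 TPM, made up most of the pericyte sum. Median log2 ratios were -0.10 for endothelium, -0.08 for arterial endothelium, -0.37 for smooth muscle and -0.01 for pericytes. Of the 6 arterial markers, 3 had a ratio above 0 and 3 below. Gja5 was higher in replicate 2, and the interval of the Gja4 ratio included 1.

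Gjb2 had too few reads for the test. Its ratio of 5.14 had an exact interval of 1.09 to 48.2, and without the count filter its adjusted p was 0.131 over 24895 genes (exact binomial test). Gjb1, the other connexin of hepatocytes, had 0 counts in replicate 1 and 14 in replicate 2 (adjusted p = 8.36e-04 without the filter, exact binomial test). Hepatocyte markers moved with both. They summed to 7.28 TPM in replicate 1 and 33.5 TPM in replicate 2. Of the 8, 7 were counted as differing, all higher in replicate 2, where 0.297% of all genes tested were. Alb, serum albumin, had 2 counts in replicate 1 and 907 in replicate 2, Apob 2 and 256, and Apoa1 1 and 101. Fgb and Serpina1a had 0 counts in replicate 1, Ttr had 4 against 80, and Cyp2e1 147 against 384. Ahsg, at 4.45 and 6.53 TPM, did not reach a ratio of 2. Epithelial markers were not higher in replicate 2, with Krt5 at 0 counts in both animals, Cdh1 at 5 and 2, and Krt18 and Krt8 at 1.42 and 1.16 and at 0.98 and 0.67 TPM. The 4 lung epithelial genes, among them Scgb1a1, Sftpc and Sftpb, summed to 0 and 0.49 TPM. The part of other tissue in the Gjb2 and Gjb1 reads was not tested.

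The remaining cell types of the heart were read in the same way, beside the 10.9% of all genes tested that passed as higher in replicate 1. Fibroblast markers, led by Dcn, Col1a1 and Lum, summed to 293 and 256 TPM, and 2 of 5, Col1a1 and Pdgfra, passed as higher in replicate 1. Mesothelial markers, led by Msln, Upk3b and Krt19, summed to 21.9 and 15.3 TPM, with 3 of 4 higher in replicate 1. Macrophage markers, led by C1qa, Csf1r and Adgre1, had a median log2 ratio of -0.33, with 1 of 4, C1qa, higher in replicate 1 (3 with total counts or ERCC totals).

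The annotation gives Gja1 8 transcripts, Gjc1 5, Gja5 3, Gja3 2, and Gja4 and Gjb2 1 each. For Gja1 and Gjc1 the leading forms carry the same coding sequence and differ only in the untranslated first exon, so the choice of form concerns the start of transcription and not the protein. The sequences below join the last 15 bases of the first exon, in capitals, to the first 15 bases of the second, from the GENCODE M21 transcripts. They are shown because only reads that reach into the first exon can tell the forms apart.
Gja1-201: TCATTAAGTGAAAGAgaggtgcccagacat
Gja1-206: GGGCAACCTTGAACGgaggtgcccagacat
Gjc1-201: GGCGCCCACCGCCGGagagaatttgggaaa
Gjc1-202: ACCCTGGAAACTCAGagagaatttgggaaa
The first exon of Gja1-201 is chr10:56377330-56377518 and that of Gja1-206 chr10:56379088-56379387, both on the plus strand. Between these forms alone, 2882 bases are shared, and 189 bases are private to Gja1-201 and 300 to Gja1-206. Gja1-204, a model without splicing, runs from 2 to 3420 bases after the gene start. It covers the whole first exon of Gja1-206 (1758 to 2057) and nearly all of that of Gja1-201 (0 to 188). Reads that lie wholly within those stretches do not separate Gja1-204 from the spliced forms. For Gjc1, on the minus strand, the first exons are chr11:102818970-102819179 in Gjc1-201 and chr11:102819504-102819700 in Gjc1-202. These forms share 1693 bases, with 210 and 197 private when only they are compared.

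For Gja1 the 2 quantifications assigned the reads differently. In the alignment-based table Gja1-201 held 97.7% of the gene in replicate 1 and 98.4% in replicate 2 by the deposited percentage, and Gja1-206 had 0 counts in both. In the read-based table Gja1-206 had 9006 and 10107 counts, 53.7% and 46.8% of the gene's TPM, and Gja1-201 had 44.0% and 51.6%, so that the leading form there differed between the animals. The gene's total was 15514 and 19578 counts in the first and 16474 and 21067 in the second, so the disagreement lies in the form and much less in the gene.

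For Gjc1 the methods disagreed in the same sense: alignment favoured the form that starts upstream, which is Gjc1-202 here, and the read-based table the one that starts further downstream. The alignment-based table gave Gjc1-202 67.0% in replicate 1 and 71.9% in replicate 2, and Gjc1-201 27.9% and 22.6%. The read-based table gave Gjc1-201 91.3% and 77.7%, and Gjc1-202 1.60% and 12.9%. Within each method the 2 animals had the same leading form of Gjc1, whereas the leading form differed between methods. The credibility intervals of Gjc1-202, at 4.43 to 9.38 TPM in replicate 1 and 6.82 to 12.1 TPM in replicate 2, show how loosely the alignment-based reads fixed the form. The start site in use was not tested here.

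**Figure D4:**
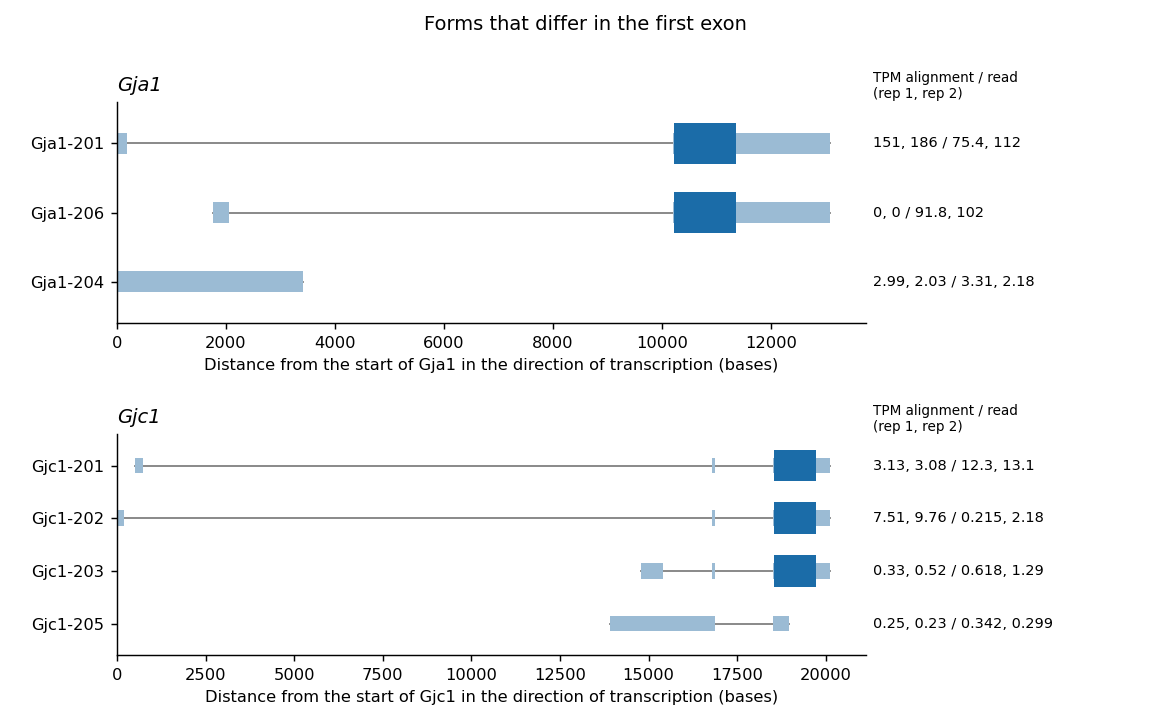
Exons (boxes; coding parts tall and dark) of the forms of Gja1 and Gjc1, along the distance in bases from the start of the gene in the direction of transcription, with TPM in replicates 1 and 2 by the alignment-based and the read-based tables at the right. The coding exon is shared by Gja1-201 and Gja1-206, and by Gjc1-201, Gjc1-202 and Gjc1-203, whereas the levels of the forms change with the table.

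Gja1-204 is a model that reads from the first exon into the first intron without splicing, and both methods gave it similar counts. It had 336 counts in replicate 1 and 235 in replicate 2 in the alignment-based table, and 352 and 235 in the read-based one. That is 2.16% of the gene's counts in replicate 1, with an exact 95% interval of 1.94 to 2.41%, and 1.20% in replicate 2, with an interval of 1.05 to 1.36%. The intervals, which cover counting error only, do not overlap. Its log2 ratio of scaled counts was -0.48, while that of the gene was 0.37. Retained-intron models were lower in replicate 2 across the genome too, with a median log2 ratio of -0.36 over 6933 models, of which 69.7% were higher in replicate 1. Gjc1-205, the retained-intron model of Gjc1, had 28.3 and 26.3 counts.

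Short models set much of the TPM of Gja5 and Gja3. Gja5-202 is 405 bases long and held 15.1 of the gene's 466 counts in replicate 1 and 34.7 of 568 in replicate 2, which is 3.24% and 6.11%. By the deposited percentage it made up 24.8% and 39.0% of the gene's abundance, because TPM divides by the usable length of the model, 306 bases here. The read-based table uses 105 and 109 bases for the same model, and there it made up 38.2% and 50.3% of Gja5 on 2.26% and 3.72% of the counts. Gja3-202, of 284 bases, held 15 and 13 counts, 3.44% and 2.90% of the gene, but 33.9% and 30.1% of its abundance. It had 0 counts in the read-based table.

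Without models under 500 bases, an alternative chosen after the data were seen, the mean levels were 4.97 ± 0.247 TPM for Gja4, 4.75 ± 0.453 for Gja5 and 4.67 ± 0.00707 for Gja3. The spread of Gja5 between the animals then fell from 1.72 to 0.453 TPM. Gja4 and Gja3 then lay within 1 SD of Gja5, so the order of these genes in the full tables rested on 15.1 and 34.7 counts of Gja5-202 and 15 and 13 counts of Gja3-202. The read-based levels without short models were 5.80 for Gja4, 5.64 for Gja5 and 5.53 TPM for Gja3. Gja5-203, which starts far upstream at position 96904693 of chromosome 3, had 0 and 3.25 counts by alignment and 43.2 and 71.2 in the read-based table.

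**Figure D5:**
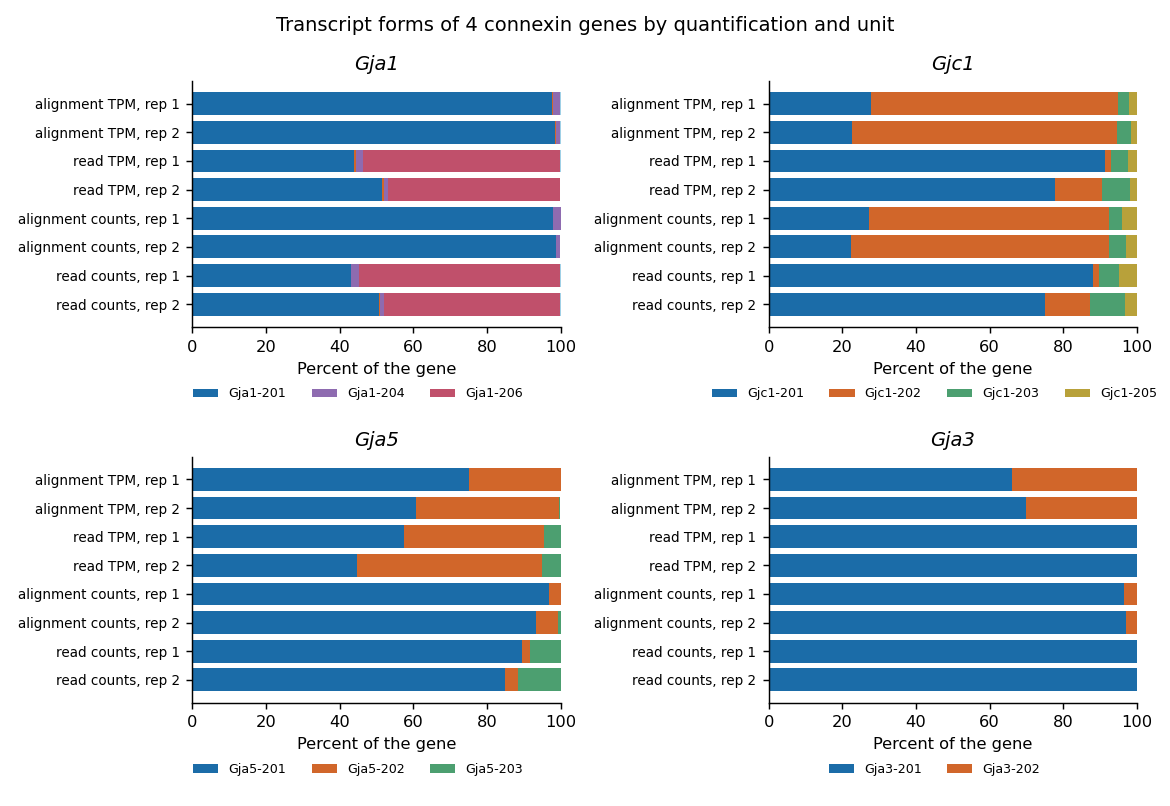
Percent of each gene held by its transcript forms (stacked bars; forms that reach 1% are named) for Gja1, Gjc1, Gja5 and Gja3, by alignment-based and read-based TPM and counts in replicates 1 and 2. Gja1-206 appears only in the read-based bars, the leading form of Gjc1 switches between methods, and Gja5-202 and Gja3-202 take a far larger part of TPM than of counts.

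Upstream sequence was examined for 5 members with an entry in the RefSeq promoter table (GRCm38.p6); Gjc1 had none. The 250 bases before the RefSeq start of Gja1 and Gja5 are shown because these genes were both higher in replicate 2 and because alignment-based reads placed nearly all of both genes at the start site downstream of them. Capitals mark matches to the motifs searched.
Gja1, chr10:56377050-56377299, plus strand: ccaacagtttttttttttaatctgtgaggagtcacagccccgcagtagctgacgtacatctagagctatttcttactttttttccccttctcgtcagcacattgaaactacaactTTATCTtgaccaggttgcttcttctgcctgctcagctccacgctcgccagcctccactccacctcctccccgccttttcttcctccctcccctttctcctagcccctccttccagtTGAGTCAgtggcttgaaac
Gja5, chr3:97032152-97032401, plus strand: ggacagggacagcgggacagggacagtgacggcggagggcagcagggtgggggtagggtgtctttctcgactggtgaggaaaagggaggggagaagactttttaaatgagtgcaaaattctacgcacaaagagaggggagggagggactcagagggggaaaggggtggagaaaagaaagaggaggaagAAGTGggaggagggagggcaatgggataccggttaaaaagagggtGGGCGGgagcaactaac
The motifs, searched on both strands, were the GC box GGGCGG, the AP-1 site TGANTCA, the T-box half-site GGTGTGA, the NKX2-5 core AAGTG, the GATA core AGATAA and the TATA box TATAAA. They occur in 32.7%, 6.75%, 3.33%, 40.7%, 9.99% and 12.4% of the same windows of all 32851 promoters of the table. The Gja1 window held an AP-1 site at -19 and a GATA core, on the minus strand, at -135. The Gja5 window held a GC box at -17 and an NKX2-5 core at -62. Gja4 held 1 GC box, Gjb2 2, and 1 of the 2 Gja3 windows a TATA box. A match is a run of letters and does not show binding.

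The proteins that hold connexins at the intercalated disc, where heart muscle cells meet, were all expressed. All 13 listed genes were detected, led by Ctnna1 at 209 and 205 TPM, Dsp at 174 and 191 TPM and Ctnnb1 at 185 and 174 TPM. At any ratio, 7 passed as higher in replicate 2, where 9.43% of all genes tested did. Tjp1 alone passed as higher in replicate 1, where 10.9% did. The median was 0.09 against 0.00 over all genes. Dsp, the desmosomal plaque protein desmoplakin, had a log2 ratio of 0.22, and Tjp1, the scaffold that binds Cx43, -0.07. With ERCC totals the median was -0.01, with 4 higher in replicate 2 and 3 in replicate 1, while Gja1 stayed at 0.27.

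Genes that traffic, turn over or phosphorylate connexins had medians near 0. Their counts below stand beside 10.9% of all genes tested passing as higher in replicate 1 and 9.43% in replicate 2. Of 11 trafficking and turnover genes, led by the ubiquitin ligase Nedd4 at 145 and 143 TPM, Tsg101 and Mapre1, 2 passed as higher in replicate 1, Eps15 and Hgs, which act in endocytosis, and 1, Nedd4, as higher in replicate 2, with a median of -0.02. Of 10 kinases known to act on connexins, 2 passed, both higher in replicate 2: Prkaca, the catalytic subunit of protein kinase A, at 138 and 141 TPM, and Camk2d at 59.1 and 59.6 TPM. Akt1, at 79.2 and 70.7 TPM, did not pass, and the median was -0.03. With ERCC totals, 5 of the trafficking genes and 4 of the kinases passed, all higher in replicate 1.

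Genes listed as regulators of connexins of muscle and of vessels had medians of opposite sign. Of 11 tested regulators of muscle and conduction connexins, 5 passed as higher in replicate 2 and 1, Tbx3, a repressor of working-muscle genes in the nodes, as higher in replicate 1, with a median of 0.14. Hopx led them at 170 and 174 TPM, followed by Gata4 at 39.4 and 43.0 TPM and Nkx2-5 at 30.6 and 33.8 TPM. Tbx5 and Irx3 also passed, and Irx3, a factor of the fast conduction system, measured 11.7 and 17.2 TPM in the 2 animals, a log2 ratio of 0.64. Of 8 vessel regulators, 4, namely Klf2, Klf4, Notch1 and Hey1, passed as higher in replicate 1 and 0 as higher in replicate 2, with a median of -0.26. The shares over all genes tested were 10.9% higher in replicate 1 and 9.43% higher in replicate 2. With ERCC totals the muscle and conduction list had 2 passing in each direction and a median of 0.04, and the vessel list 5 higher in replicate 1. Klf2, a flow-responsive factor of endothelium, measured 24.0 and 15.5 TPM and Sox18 21.9 and 19.4 TPM, and Klf4 had a log2 ratio of -0.67. No member of these 5 lists of partners and regulators was counted as differing.

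Replicate 1 held 42966739 gene counts and replicate 2 held 42720824, so depth was nearly equal. The libraries differed by more than counting noise, with chi-square over degrees of freedom at 13.27, and the median absolute log2 ratio of all genes tested was 0.14. An adjusted p from 2 libraries therefore measures the counting error and not the spread that further animals would show.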

How the data were processed

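Total RNA libraries of 2 hearts were analysed. Per the deposited listings both quantifications used mm10 with GENCODE M21; no source used here names the tools. The authors deposited unnormalized expected counts in the alignment-based tables, estimated counts in the read-based ones, and in both a TPM that also covers the spike-ins, per the file headers. The percent column, each transcript's share of its gene, and the score columns, the ends of a credibility interval for TPM at an unstated level, were deposited in the alignment-based tables, per the file headers. ERCC (96) and tRNA (26248) entries were left out of totals.

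Members and lists were chosen with earlier results of these data known. Named genes were the members, the other connexins and pannexins (some are not reported here), and, of each other list, the 3 with the highest mean TPM, those counted as differing and those at 0; further list genes named were chosen after their values were seen. Members were detected at 1 TPM in both animals, with a pseudocount of 0.1 in log2 ratios. Counts were rounded, scaled by the TMM method (edgeR 4.0.16, run in R 4.3.3) and compared by a two-sided exact binomial test wherever the mean count reached 10. Exact 95% intervals cover counting error only. Counting noise was simulated for this comparison (15839 genes, 200 changed), without credibility intervals, so calls there used only the adjusted p and the ratio. By that looser rule 0 of 200 genes changed 1.5-fold, 173 changed 3-fold and 194 changed 4-fold were called. So were 0, 1 and 4 of 15639 unchanged genes. The required ratio of 2 keeps 1.5-fold changes from being called, and 122 of those 200 passed at any ratio. The rates of the full rule were not simulated. Alternatives were the read-based tables, rescaled TPM (protein-coding nuclear genes), posterior mean TPM, other pseudocounts, thresholds and filters, DESeq2 1.42.0 size factors, total and ERCC counts, intervals not used and each animal left out. Scripts used Python 3.11.15 with scipy 1.17.1, numpy 2.4.6, matplotlib 3.10.9 and pandas 2.3.3.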

Additional observations from a re-analysis of the deposited data

How the results depend on the processing

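Of 107 recomputed main values, 77 stayed within the spread or the 1.5-fold limit used, 29 moved and 1, Gja4 over Gja5, turned over. Gja3 over Gja4, which is not among these main values, turned over under 2 alternatives. Read-based tables gave 5.53 TPM for Gja3, 5.80 for Gja4, 10.3 for Gja5, 15.2 for Gjc1 and 83.5% for the Gja1 share of connexin TPM. Log2 ratios there were 4.23 for Gja1 over Gja5, 3.67 for Gja1 over Gjc1, -0.80 for Gja4 over Gja5, -0.57 for Gja5 over Gjc1 and -0.06 for Gja3 over Gja4 (0.46 as reported). Read-based shares were 47.8% for Gja1-201, 100% for Gja3-201, 51.0% for Gja5-201 and 7.24% for Gjc1-202. TPM rescaled to protein-coding nuclear genes gave 442 for Gja1, 17.7 for Gja3, 12.8 for Gja4, 18.3 for Gja5, 31.9 for Gjc1 and 0.194 for Gjb2, and 6 connexins then reached 1 TPM in both animals, in place of 5. Without models under 500 bases, added after the data were seen, Gja3 had 4.67 and Gja5 4.75 TPM, and log2 ratios were 5.14 for Gja1 over Gja5 and -1.36 for Gja5 over Gjc1, with 0.07 for Gja4 over Gja5 (-0.49 as reported) and -0.09 for Gja3 over Gja4. A pseudocount of 1 gave 4.85 for Gja1 over Gja4, 4.42 for Gja1 over Gja5 and 3.69 for Gja1 over Gjc1. Genes differing between the animals numbered 130, against 25 with a mean count of at least 100, 290 without the credibility intervals and 336 on read-based counts, which carry no such intervals. Rescaling multiplies all levels of a library by the same factor, and a larger pseudocount shrinks ratios, so these shifts follow from the settings. Leaving out the intervals can only add calls. The causes of the other shifts were not tested, beyond the short models, which the alternative removes.

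With posterior mean TPM, other detection thresholds, DESeq2 size factors, total counts, ERCC totals or either animal left out, none of these main values moved past those limits, although leaving out 1 of 2 animals cannot move a mean past the SD. No call on the 5 tested members changed in any alternative. No paired analysis was possible because both samples belong to 1 group. Gjb2, on 2 and 10 reads, is limited by depth.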
